A study of Mus musculus with 6 samples.

Results

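The unnamed autosomal noncoding RNA intervals of this mouse array are stretches of genome that the array design lists only by chromosome, start, end and strand, with a trailing F or R for the forward or reverse strand and the description lincRNA. Members were chosen by that form of the gene name alone, among probes that are not controls. The rule found 15604 probes, which is 28.0% of the 55681 probes of the array. They stand for 4429 interval names on 3387 intervals of the 19 autosomes, of which 1042 intervals carried probes for both strands and 2345 for 1 strand. Forward probes numbered 7890 and reverse probes 7714. A name had a median of 3 probes (range 1 to 10), each of 60 bases, and an interval had a median length of 7.45 kb, with the shortest at 62 bp and the longest at 7.13 Mb. Of the member probes, 15486 had a position on the mm9 mouse genome, and in all of these the strand of the position was that of the name. Interval names overlap, so that merging them by strand left 3226 separate stretches.

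Large intergenic noncoding RNAs are transcripts without a known protein that are usually spliced, capped and polyadenylated like messenger RNAs. Many were first mapped as intervals, from chromatin marks of active transcription between known genes, and so were known by position and possible strand before any transcript had a name. Some act on nearby genes, some as scaffolds for proteins, and some have turned out to be unannotated ends of neighbouring genes or to hold a short open reading frame.

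RNA came from glomeruli, the filtering capillary tufts of the kidney, of male BXSB/MpJ mice aged 4 months, a recombinant inbred strain that goes back to C57BL/6 and SB/Le parents. BXSB/MpJ-Yaa males, called Yaa here, carry a Y chromosome with an added copy of a telomeric segment of the X chromosome and develop autoimmune glomerulonephritis. BXSB/MpJ-Yaa+ males carry the normal Y chromosome and were the controls. Glomeruli were isolated by perfusion with beads, and 6 glomerular populations of each strain were combined 2 at a time, so that each strain gave 3 arrays and each array is a pool. The labels name no treatment for either group, and the strains differ in the Y chromosome and share the rest of the stated background. The p-values measure the spread between these pools.

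Levels below are log2 signals relative to the 75th percentile of the same array, and fold changes are log2 differences of Yaa minus control ± SE with 3 arrays per group. Levels of single probes were not set against each other. Over the arrays that percentile lay between 261 and 432 intensity units. RNA of Tlr7, a gene of the copied segment, was higher in Yaa at both tested probes, with fold changes of 0.88 ± 0.12 (adjusted p = 0.0103) and 1.29 ± 0.20 (adjusted p = 0.0169). Both probes of its neighbour Tlr8 were below the detection flag on every control and above it on all 3 Yaa arrays, at least 8.05-fold and 5.95-fold higher. Macrophages express both genes, so these values do not by themselves show the genotype. Of 16 tested macrophage markers, 13 were higher in Yaa and none lower, and their summed linear signal was 142 to 174 times the array's 75th percentile in controls and 260 to 289 times in Yaa. The summed signal of 8 tested podocyte markers was 911 to 954 in controls and 633 to 750 in Yaa, that of 9 glomerular endothelial markers 517 to 604 and 338 to 482, and that of 7 mesangial markers 180 to 194 and 128 to 157, although no single gene of these 3 lists passed the test. In bulk tissue, fewer cells of a type and less RNA per cell cannot be told apart, and the part of cell composition in the results below was not tested. Yaa replicate 1 stood apart in detection, with 29.0% of members well above background against 34.2% to 40.6% on the other arrays. All arrays lay on 1 slide, where each strain filled its own column, so an effect of the column and one of the strain cannot be told apart.

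The probe sequences that carry the main results are given here 5′ to 3′, with positions on mm9. The first set shows members with small adjusted p-values. Capitals mark bases in a run of 20 or more that another probe of the array shares exactly, because such a probe can pick up the same RNA.
chr1:175666326-175666385, reverse: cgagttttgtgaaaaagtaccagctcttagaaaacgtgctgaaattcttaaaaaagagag
chr1:175653663-175653722, reverse: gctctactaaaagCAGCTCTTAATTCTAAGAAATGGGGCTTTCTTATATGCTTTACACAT
chr1:175655065-175655124, reverse: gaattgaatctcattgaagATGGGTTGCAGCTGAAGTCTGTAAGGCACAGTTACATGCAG
chr1:175655046-175655105, reverse: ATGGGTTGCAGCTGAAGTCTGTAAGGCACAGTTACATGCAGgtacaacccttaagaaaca
chr9:65369151-65369210, reverse: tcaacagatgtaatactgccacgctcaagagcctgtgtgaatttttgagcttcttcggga
chr9:14484650-14484709, forward: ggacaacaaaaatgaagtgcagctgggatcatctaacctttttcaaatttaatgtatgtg
chr5:45400918-45400977, reverse: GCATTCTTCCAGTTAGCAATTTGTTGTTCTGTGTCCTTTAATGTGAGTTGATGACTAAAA
chr13:76327519-76327578, forward: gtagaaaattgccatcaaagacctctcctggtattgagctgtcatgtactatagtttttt
chr19:23069750-23069809, forward: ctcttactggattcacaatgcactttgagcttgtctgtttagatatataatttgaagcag
chr2:176700978-176701037, forward: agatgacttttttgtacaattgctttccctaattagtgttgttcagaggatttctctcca

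The second set shows 4 probes of 4 different reverse-strand intervals of chromosome 13 that are near copies of one another. Here the capitals mark runs of 20 or more bases shared exactly with another of the 4.
chr13:74569938-74569997, reverse: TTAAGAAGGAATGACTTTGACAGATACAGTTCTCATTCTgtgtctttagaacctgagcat
chr13:74643854-74643913, reverse: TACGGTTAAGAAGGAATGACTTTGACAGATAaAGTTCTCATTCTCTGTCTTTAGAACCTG
chr13:74713330-74713389, reverse: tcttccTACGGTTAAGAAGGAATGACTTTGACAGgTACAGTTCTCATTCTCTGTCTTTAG
chr13:74741991-74742050, reverse: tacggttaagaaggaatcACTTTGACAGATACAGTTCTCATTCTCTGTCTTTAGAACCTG

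Most interval probes gave little signal in glomeruli. In controls 34.2%, 35.6% and 39.2% of the 15604 probes were well above background, by the scanner's own flag, and in Yaa 29.0%, 35.4% and 40.6%. All other probes of the array gave 60.6%, 61.4% and 63.4% in controls and 57.4%, 62.5% and 65.7% in Yaa. The member share was thus lower than the share of other probes on every array, while the ranges of the control and Yaa arrays overlapped. Over the 6 arrays, 4035 members (25.9%) were well above background on every array, 7682 (49.2%) on none and 3887 on some, against 54.9% and 28.8% of the other probes on every array and on none. Of the 4429 names, 532 had every probe above background on all arrays and 2281 had no such probe. Reverse probes were detected slightly more often than forward probes on each array, for example 35.5% against 32.8% on control replicate 1 and 30.4% against 27.5% on Yaa replicate 1.

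**Figure D1:**
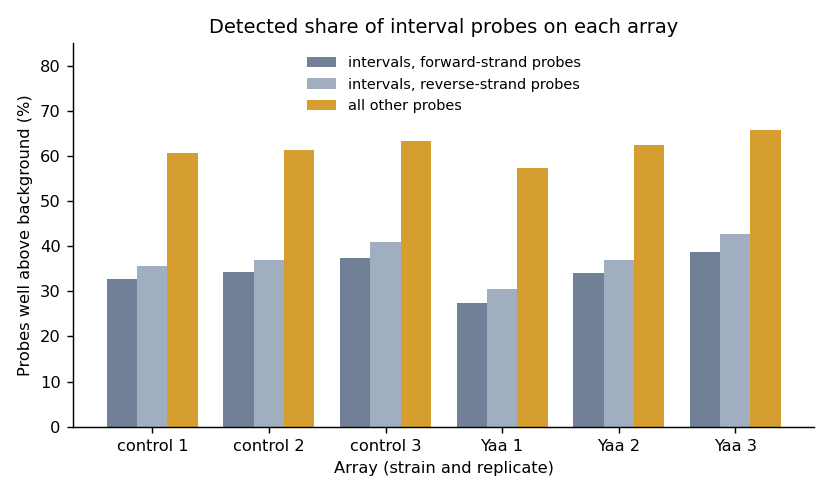
Share of probes flagged well above background (y axis, percent) on each of the 6 arrays (x axis), for forward-strand and reverse-strand interval probes and for all other probes; bars are single arrays without error bars. Interval probes lie near 28% to 43% on every array, all other probes at 57.4% to 65.7%, and Yaa replicate 1 is lowest in each class.

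Detection of members ran with base composition. Among members, 19.9% of the 4896 probes with at most 40% G and C were above background on every array, 39.2% of the 1660 probes with over 55% and up to 60%, and 72.6% of the 329 probes above 60%. Named-gene probes showed a flatter course, with 62.4%, 67.9% and 75.6% in the same classes. Mean GC content was 46.8% ± 9.1 (SD over probes) in the members detected on every array and 42.5% ± 6.6 in those detected on none. The difference between interval and named-gene probes was therefore large at low GC and small above 60% GC. The hexamer AATAAA, the usual signal for polyadenylation, was in 3.92% of member probes, 4.41% of those detected on every array and 3.84% of those detected on none, against 13.3% of named-gene probes. A match to these letters is a description of the probe, read on its own strand.

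Detection also ran with position. A gene counts as named here unless its label is an interval, an accession number, a clone or a prediction. The nearest probe of one lay at a median distance of 33.1 kb from a member probe and on the same strand in 51.2% of cases. Where it lay on the same strand within 1 kb, 60.3% of 295 members were above background on every array. That share was 35.7% of 1446 members at 1 to 10 kb, 27.0% of 4539 at 10 to 100 kb and 23.2% of 1653 beyond. Where the nearest named gene lay on the opposite strand, the share stayed between 20.7% and 23.6% at all 4 distances. A named-gene probe of the same strand lay inside 168 of the 4429 names, and members of those names were detected on every array in 44.4% of cases against 25.1% elsewhere. Chromosome 9 had the lowest share of members detected on every array, 17.7%, and chromosome 14 the highest, 32.8%.

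Some intervals cover known transcripts that the array also holds under a name. Exactly 74 member probes had the same 60 bases as a probe with another label, and in 73 of these pairs both or neither were above background on every array. Both probes could be tested in 35 pairs, where the fold changes differed by a median of 0.05 and at most 0.82. These pairs measure 1 sequence at 2 spots and show the precision of a single spot. In all, 1159 members (7.43%) shared a run of 20 or more bases with another probe, 270 of them with a probe outside the intervals. By exact runs of 30 bases, 249 members lay in the 300-base promoter windows of RefSeq genes, 147 against the direction of the gene. Of those 147, 40.1% were above background on every array, and of the 111 that read with the gene 32.4%. Runs of 20 bases shared with a miRNA hairpin were found in 13 members. The 5 of these that could be tested did not pass the test, among them a forward probe of chr15:85412264-85549139 that overlaps a let-7c hairpin, let-7 being a family that holds back growth genes, at 0.42 ± 0.68 (adjusted p = 0.758).

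Few interval probes were called different between the strains. Of 28598 probes tested over the whole array, 945 (3.3%) were called at an adjusted p under 0.05, with 726 higher in Yaa (2.54%) and 219 lower (0.766%). Of the members, 4851 had been above background on all 3 arrays of a group and were tested. Among these, 27 were higher in Yaa (0.557%) and 31 lower (0.639%), so that rises were a smaller share than over the whole array and falls a similar one. The other 10753 members had too little signal for a test. Tested members were also dim, with a median level of -2.36 to -2.01 on the arrays against 0.17 to 0.23 for other tested probes. The part of low signal in the share called was not tested, so a member without a call is not shown to be unchanged. Of the tested members 703 had passed the filter through the controls alone and 113 through Yaa alone. This split was not set beside that over all tested probes, so it does not show a trait of the intervals. Only 16 of the 27 rises and 18 of the 31 falls were above background on all 6 arrays. The other called members had passed the filter only through the group where they were higher, so those calls are not independent of the filter. Among probes above background on all 6 arrays, 683 of 26040 were called, with 16 rises and 18 falls among 4035 members. The median fold change was -0.20 over tested members and -0.15 over all tested probes, and 3760 of 4851 members lay below 0. At an unadjusted p under 0.05 there were 120 members higher and 521 lower. These counts and the count below 0 were not set beside the same counts over all tested probes, so they do not show a trait of the intervals. With the filter on all 6 arrays the median was -0.19 over members and -0.14 over all probes. Without a filter on dim probes it was -0.09 and -0.08. The counts of called members moved when an array was left out. Without control replicate 1, 2 or 3 the members higher were 18, 18 and 14 and those lower 11, 11 and 16, and without Yaa replicate 1, 2 or 3 they were 36, 40 and 27 higher and 88, 24 and 18 lower. Calls over all tested probes moved as well, from 945 to 518, 495 and 489 without a control and to 1286, 860 and 741 without a Yaa array. Those fits tested 28636 to 30125 probes, of which 4864 to 5351 were members. Chromosome 9 held 10 of the 27 rises among 158 tested members, all from stretches with 6 and 4 called probes. Chromosome 1 held another 9 among 365, and 8 of these came from a single stretch. Neighbouring probes are not separate events, and calls by chromosome were not counted over all tested probes, so no clustering by chromosome is shown.

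**Figure D2:**
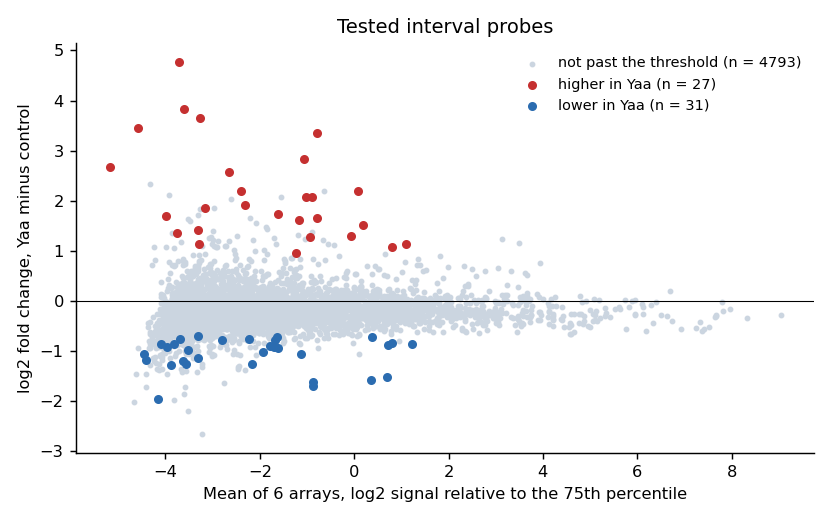
Fold change (y axis, log2 of Yaa over control) against the mean of the 6 arrays (x axis, log2 signal relative to the 75th percentile) for the 4851 tested interval probes. The 27 probes higher in Yaa (red) and 31 lower (blue) lie mostly at low signal, and the brightest probes lie close to the median of -0.20.

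The 27 rises came from 14 names that merge into 10 stretches. The largest group, 8 probes, came from 3 overlapping reverse-strand names of chromosome 1, chr1:175653557-175671940, chr1:175654606-175672031 and chr1:175660642-175671878, in which all 11 probes were tested and all had fold changes above 0. This stretch covers AI607873, now called Ifi207, a member of the interferon-inducible Ifi200 family of nucleic acid sensors, on the same strand. The probe at chr1:175666326-175666385 gave -5.14, -5.44 and -5.95 in controls, where no array was well above background, and -1.94, -1.44 and -1.67 in Yaa. The bound was at least 6.12-fold higher in Yaa, and the fitted change was 3.83 ± 0.24 (adjusted p = 0.000505). The probe had passed the filter through Yaa alone, so the separation of the groups is not separate support. The bound also depends on the background correction, as given below. Beside it, the probe at chr1:175666386-175666445 gave -6.14, -6.09 and -6.69 in controls, none well above background, and -3.24, -2.71 and -2.61 in Yaa, a bound of at least 2.72-fold higher (adjusted p = 0.000659).

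Probes near the lower end of the same stretch were measured in both strains. At chr1:175653663-175653722 the controls gave -2.53, -2.69 and -2.19 and the Yaa arrays 0.49, 0.71 and 1.46, a rise of 3.35 ± 0.27 (adjusted p = 0.00108). This probe shares a run of 42 bases with a probe named AI607873, which rose by 3.22 ± 0.26 (adjusted p = 0.00107). The probe at chr1:175655065-175655124 gave -2.45, -2.65 and -2.34 in controls and -0.09, 0.13 and 1.04 in Yaa, a rise of 2.84 ± 0.29 (adjusted p = 0.00285). Its overlapping neighbour at chr1:175655046-175655105, which shares 41 of its bases, gave -1.0, -1.10 and -0.90 in controls and 0.77, 0.91 and 1.87 in Yaa (2.18 ± 0.29, adjusted p = 0.00895). The groups did not overlap for any of the 3, and Yaa replicate 3 was highest each time. Another probe, at chr1:175653734-175653793, rose by 2.08 ± 0.23, and the probe at chr1:175657599-175657658, which was above background on 2 control arrays, by 2.57 ± 0.36. Of the rising probes, 5 share runs of 22 to 34 bases with probes of a further interval, chr1:175705225-175717250, which did not pass the test (0.50 to 0.65), so that copies within this gene family can share signal. Ifi204, the next named gene and another Ifi200 member, rose by 2.49 at 1 probe (adjusted p = 0.0476) and by 1.21 at the other (adjusted p = 0.0456, but 0.0876 in a fit with replicate number as a block).

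A pair of stretches of chromosome 9 gave the other large groups. In chr9:14460976-14488051, forward strand, all 5 probes rose, by 1.51 to 2.07, and a probe of the overlapping chr9:14480441-14483362 rose by 1.36 ± 0.20 (adjusted p = 0.0131), while the other tested probe of that name stood at -0.62. The probe at chr9:14484650-14484709 gave -1.81, -2.12 and -1.87 in controls and 0.29, -0.21 and 0.34 in Yaa, a rise of 2.07 ± 0.19 (adjusted p = 0.00176). All controls lay below all Yaa arrays. The array's own probe for Gm7607, a long noncoding RNA by its RefSeq class, sits inside the interval on the same strand and was not above background on any array. None of the 5 probes for the opposite strand had enough signal for a test. On the opposite strand, Piwil4, a gene of the piwi family, has a probe 18.8 kb away that was above background on 1 Yaa array only. The nearest gene with a tested probe, also on the opposite strand and 65.2 kb away, was Fut4, a fucosyltransferase that makes the CD15 sugar on myeloid cells. Its probe was below the detection flag on every control and above it on all 3 Yaa arrays, at least 3.87-fold higher (adjusted p = 0.00165).

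In chr9:65368908-65377592, reverse strand, all 3 probes rose, and none was well above background on a control array. The probe at chr9:65369151-65369210 gave -6.27, -5.22 and -6.81 in controls and -1.68, -1.03 and -1.28 in Yaa, which is at least 7.81-fold higher (fitted change 4.77 ± 0.40, adjusted p = 0.00117). The probe at chr9:65368970-65369029 gave -4.48, -4.35 and -6.43 in controls and -1.61, -1.23 and -1.47 in Yaa, at least 7.26-fold higher (adjusted p = 0.0131). A neighbouring name, chr9:65376063-65390480, had 1 of 3 tested probes higher, by 1.91 ± 0.28 (adjusted p = 0.0131), and the lowest of the 3 was at -0.19. On the same strand, the probe of Ankdd1a, 17.7 kb away, was not above background on any array. The nearest tested gene on that strand was Plekho2, a pleckstrin-domain protein known from macrophages, whose 3 probes gave 0.36, 0.73 and 0.78, the second of them past the test (adjusted p = 0.0338, but 0.0743 in a fit blocked on the replicate number).

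With normexp background correction, which shrinks differences among dim spots, the probe at chr9:65369151-65369210 had a fold change of 1.41 (adjusted p = 0.00118) and that at chr1:175666326-175666385 one of 1.11 (adjusted p = 0.00232), both smaller than their bounds. Its neighbour at chr1:175666386-175666445 missed the threshold there (0.58, adjusted p = 0.0572), as did the third probe of the chromosome 9 interval (0.35, adjusted p = 0.239). In all, 16 of the 27 rises and 12 of the 31 falls kept their call. The lowest signal well above background, on which a bound rests, is an extreme of each array and not a detection limit.

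The remaining rises were single probes or pairs. In chr5:45400409-45815639, reverse strand, 1 of 3 probes could be tested. It gave -6.29, -6.45 and -6.80 in controls and -3.18, -4.17 and -4.17 in Yaa, at least 1.37-fold higher (fitted change 2.67 ± 0.30, adjusted p = 0.00380). Its 60 bases are also those of a probe named 4930435H24Rik, now D5Ertd615e, which gave -6.10, -6.47 and -6.82 in controls and -3.94, -3.80 and -4.48 in Yaa and was above background on 2 Yaa arrays, too few for the test. With normexp correction the member fell to 0.33 (adjusted p = 0.375). The array holds other reverse-strand probes inside this interval that are not members. A probe 124 kb from its lower end was above background on every array and rose by 1.53 ± 0.19 (adjusted p = 0.00711, and 0.0390 with the replicate block). Another, 301 kb from that end, stood at -0.15 ± 0.27 (adjusted p = 0.786), and a further probe was not above background on any array. In chr14:33923944-34003394, reverse strand, 2 of 5 tested probes rose, by 2.19 ± 0.39 (adjusted p = 0.0325) and 1.84 ± 0.27, while the lowest of the 5 was at -0.60. The first of them gave -3.17, -3.35 and -3.97 in controls and -1.29, -2.06 and -0.57 in Yaa, and it missed the threshold with the replicate number as a block (adjusted p = 0.0862). Wdfy4 is a gene of antigen-presenting cells. Its probe on the array lies 22.7 kb from this interval on the same strand and was not above background on any array. The same 60 bases make up a probe of another reverse-strand interval, which overlaps this one. Whether the gene itself reaches into this interval was not tested. Both probes of chr6:4841700-4847400 (1.14 and 1.08), 1 of chr19:53517903-53540753 (1.41), 1 of chr8:126396600-126407275 (1.27), 1 of chr5:92548501-92566401 (1.13) and 1 of chr1:85036677-85038530 (0.95) made up the rest. Of these, both on chromosome 6 (adjusted p = 0.0530 and 0.0665) and that of chr1:85036677-85038530 (adjusted p = 0.0845) missed the threshold with the replicate block. The chromosome 19 interval covers 5830416P10Rik, now Mirt1, a long noncoding RNA, whose 2 tested probes inside it stood at 0.74 and 0.86 without passing the test.

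**Figure D3:**
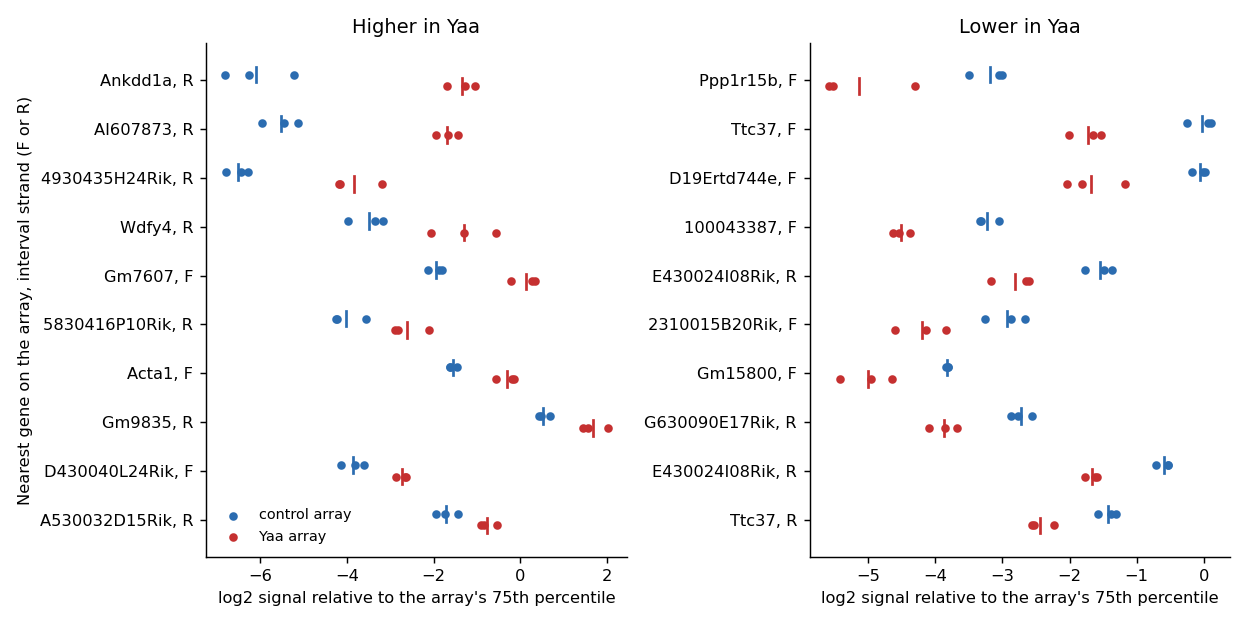
Signal of each array (x axis, log2 relative to the array's 75th percentile) for the member with the largest fitted change in each of 10 rising stretches (left) and in the 10 falling stretches with the largest fitted changes (right); points are single arrays, short vertical lines group means, and rows are labelled by the nearest gene on the array and the interval's strand. Control and Yaa points do not overlap in any row, and several rising rows begin near -6, below background in controls.

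**Figure D4:**
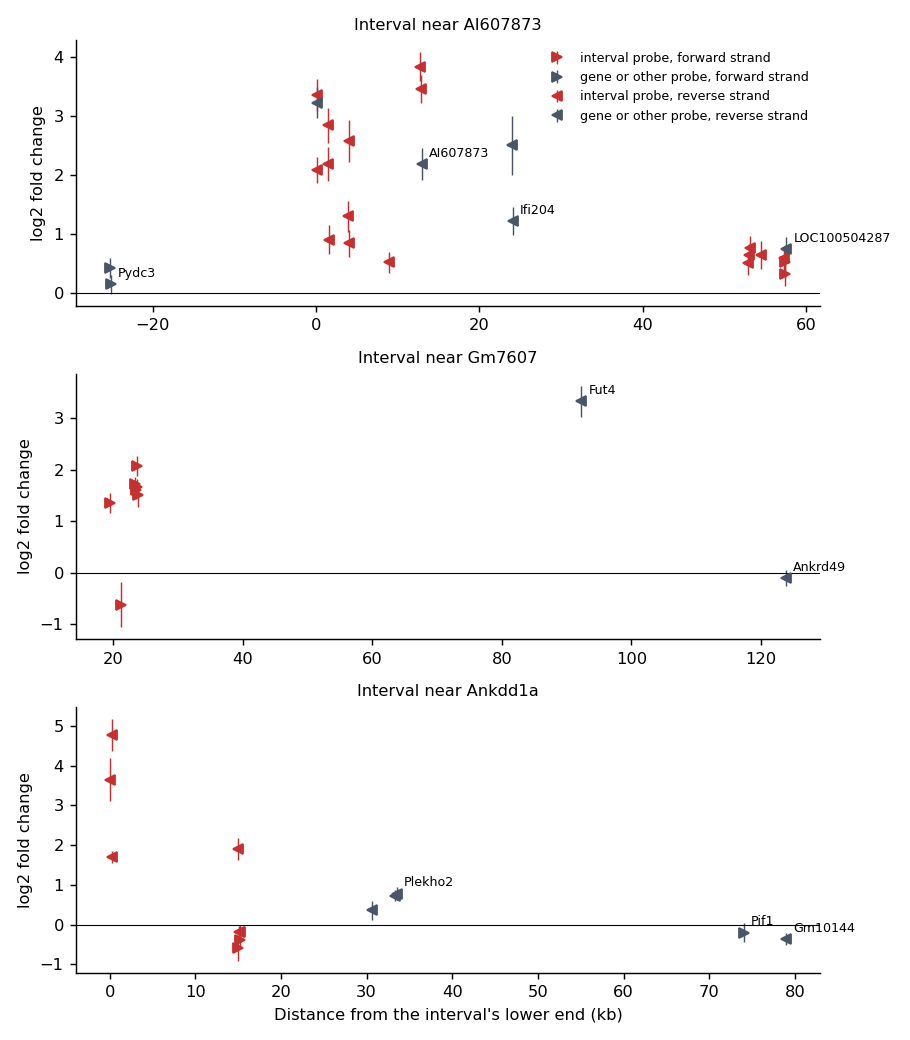
Fold change ± SE (y axis, log2 of Yaa over control) of every tested probe around 3 rising intervals, against the distance from the lower end of the interval (x axis, kb); arrowheads give the probe's strand, red marks interval probes and grey marks other probes. Called interval probes lie at 0.11 to 12.8 kb for the chromosome 1 interval, 19.6 to 23.8 kb for chr9:14460976-14488051 and 0.06 to 15.0 kb for chr9:65368908-65377592. Probes that were not called lie among or beside them. The named gene next to them stands at its fitted value, which for Fut4 rests on controls below background.

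The 31 falls were smaller and more scattered, from 23 names in 21 stretches. The probe at chr1:135070328-135070387, in chr1:135061034-135070387, forward strand, gave -3.50, -3.01 and -3.05 in controls and -5.59, -4.31 and -5.53 in Yaa, where no array was well above background, so that it was at least 2.18-fold lower (fitted change -1.95 ± 0.36, adjusted p = 0.0353). It had passed the filter through the controls alone, so the separation of the groups is not separate support. Its nearest named gene, Ppp1r15b, which encodes a subunit that directs dephosphorylation of the initiation factor eIF2, stood at 0.00 on the same strand.

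Both strands fell in chr13:76326228-76332632, the only interval with called probes on both strands among the 14 called names whose opposite strand could be tested. The forward probe at chr13:76327519-76327578 gave 0.06, -0.25 and 0.11 in controls and -1.53, -1.65 and -2.0 in Yaa (-1.70 ± 0.18, adjusted p = 0.00317). The other 4 forward probes did not pass the test, and the highest was at 0.13. The reverse probe gave -1.57, -1.31 and -1.38 in controls and -2.56, -2.53 and -2.24 in Yaa (-1.02 ± 0.15, adjusted p = 0.0152). Ttc37, a component of the cytoplasmic exosome helper complex, has a probe within 1 kb of the interval that stood at -0.17.

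All 3 probes of chr19:23064968-23069896, forward strand, fell. They gave -0.17, -0.02 and 0.02 in controls against -1.18, -1.82 and -2.04 in Yaa, then 0.96, 1.23 and 1.20 against -0.01, -0.57 and -0.75, and 1.29, 1.54 and 1.52 against 0.40, -0.21 and -0.43. The fold changes were -1.62 ± 0.23, -1.57 ± 0.22 and -1.53 ± 0.23 (adjusted p = 0.0123, 0.0104 and 0.0154). Yaa replicate 1 was the highest Yaa array for each of the 3 and still lay below every control. With the replicate block the third missed the threshold (adjusted p = 0.0555). On the same strand, D19Ertd744e has a probe 14.3 kb away that was above background on 1 Yaa array only, and Trpm3, an ion channel gene, has one 64.4 kb away that was above background on 2 control arrays and no Yaa array.

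On chromosome 13, 5 reverse-strand probes of 4 neighbouring intervals fell, chr13:74568375-74601000 (2 probes), chr13:74642700-74701900, chr13:74712775-74728450 and chr13:74738675-74756950. The 4 probes printed above share runs of 23 to 28 bases and fell by -0.92 ± 0.14, -0.94 ± 0.16, -1.07 ± 0.13 and -1.27 ± 0.20, in the order printed (adjusted p = 0.0148, 0.0259, 0.00670 and 0.0203). Because of the shared runs they cannot be counted as 4 separate measurements. The probe in the last interval gave -1.48, -1.78 and -1.37 in controls and -2.65, -2.61 and -3.17 in Yaa. The first, the second and the last missed the threshold with the replicate block (adjusted p = 0.0525, 0.0671 and 0.0696). E430024I08Rik, a long noncoding RNA inside the last interval and on its strand, stood at -0.34 (adjusted p = 0.279), and the zinc finger gene Zfp825 nearby at 0.45 (adjusted p = 0.574).

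On chromosome 10, 3 of 4 tested probes of chr10:69669025-69686275, forward strand, fell, by -1.26 ± 0.24, -1.20 ± 0.20 and -1.07 ± 0.17. The first gave -2.67, -3.26 and -2.87 in controls and -3.84, -4.61 and -4.14 in Yaa (adjusted p = 0.0420), and the third was not well above background in Yaa and at least 1.33-fold lower. The second missed the threshold with the replicate block (adjusted p = 0.0795). The interval covers 2310015B20Rik on the same strand, now Mrln, which encodes the micropeptide myoregulin and had been taken for noncoding. Its own probe, which shares 37 bases with the first of these, stood at -0.89 ± 0.25 without passing the test (adjusted p = 0.132). Also on chromosome 10, 4 reverse probes of the overlapping chr10:39659425-39674200 and chr10:39666719-39679959 fell by -0.73 to -1.15. Of these, the 3 of the second interval missed the threshold with the replicate block (adjusted p = 0.0589 to 0.0832). They lie around the transcribed pseudogene G630090E17Rik, now Mfsd4b3-ps, at -0.72 (adjusted p = 0.202). In contrast, the amino acid transporter gene Slc16a10, 76.5 kb from the second interval on the same strand, rose by 1.93 (adjusted p = 0.0424).

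Single probes fell at chr2:176700978-176701037, forward strand, which gave -3.32, -3.33 and -3.05 in controls and -4.63, -4.38 and -4.54 in Yaa (-1.28 ± 0.15, adjusted p = 0.00433), and in chr5:121768672-121772658 (-1.18 ± 0.21, at least 1.44-fold lower, adjusted p = 0.0310). The latter missed the threshold with the replicate block (adjusted p = 0.0573). The other falls lay between -0.70 and -0.99. They include a probe of chr4:41261959-41267670, forward strand, whose bases run against the promoter window of Dcaf12, a ubiquitin ligase adaptor gene, at -0.86 ± 0.14 (adjusted p = 0.0191). The probe of Dcaf12 itself stood at 0.00. With normexp correction these 3 named falls missed the threshold, as did the probe at chr1:135070328-135070387 and the 3 probes of chr10:69669025-69686275 (adjusted p from 0.184 to 0.369).

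At the threshold the 3 members just inside were a probe of chr1:85036677-85038530 (adjusted p = 0.0452), of chr19:53517903-53540753 (0.0478) and of chr1:175654606-175672031 (0.0493), with fold changes of 0.95, 1.41 and 1.29. The last of these had an adjusted p of 0.0888 with the replicate block. The 3 just outside were probes of chr14:105497388-105511063 (0.72, adjusted p = 0.0505), chr10:82074600-82085425 (-0.67, adjusted p = 0.0510) and chr14:22267795-22319045 (-0.78, adjusted p = 0.0522).

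The spread between probes of 1 name was described next. In the 1194 names with 2 or more tested probes, the SD of the fold change between probes of a name had a median of 0.15, against an SD of 0.41 over all tested members. These probes share arrays and often a transcript, so they are not replicates of the strains. Single names spread more widely, from -0.60 to 2.19 in chr14:33923944-34003394, reverse strand, for example. Of the 37 names with a called member, 13 had every tested probe called and 12 had 2 or more called.

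The 2 strands of an interval were then compared with each other. Of the 1042 intervals with probes for both strands, 360 (34.5%) had a probe above background on every array on both strands, 205 on the forward strand alone, 231 on the reverse strand alone and 246 on neither. In 439 intervals both strands could be tested, by the mean of the kept probes of each. No interval passed the test of the strand difference (percent called 0), and 26 had an unadjusted p under 0.05. The lowest p was at chr11:16831925-16851121, where the forward strand stood at -0.35 and the reverse at 1.14, a difference of -1.50 ± 0.29 (adjusted p = 0.232). Across the 439 intervals the fold changes of the strands correlated weakly, with Pearson's r = 0.126 and Spearman's rho = 0.0757, as a description over intervals that share the same 6 arrays.

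Each tested member was also compared with the nearest tested named gene within 100 kb, which 3703 members had. Fold changes of member and gene tracked each other where the 2 probes lay close on the same strand. Pearson's r was 0.940 over 37 pairs whose probes overlapped, of which 28 share a run of bases, and 0.755 over 142 pairs up to 1 kb apart. Spearman's rho was 0.939 and 0.583 in these 2 classes. At 1 to 10 kb it was 0.156 over 565 pairs and at 10 to 100 kb 0.299 over 1387, while Spearman's rho was 0.281 and 0.125, so the order of these distances depends on the measure. On opposite strands Pearson's r was 0.315 over 82 pairs up to 1 kb apart, 0.117 over 322 at 1 to 10 kb and 0.153 over 1160 at 10 to 100 kb. Spearman's rho there was 0.341, 0.154 and 0.0261. All pairs share the same arrays, and several members share a gene.

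**Figure D5:**
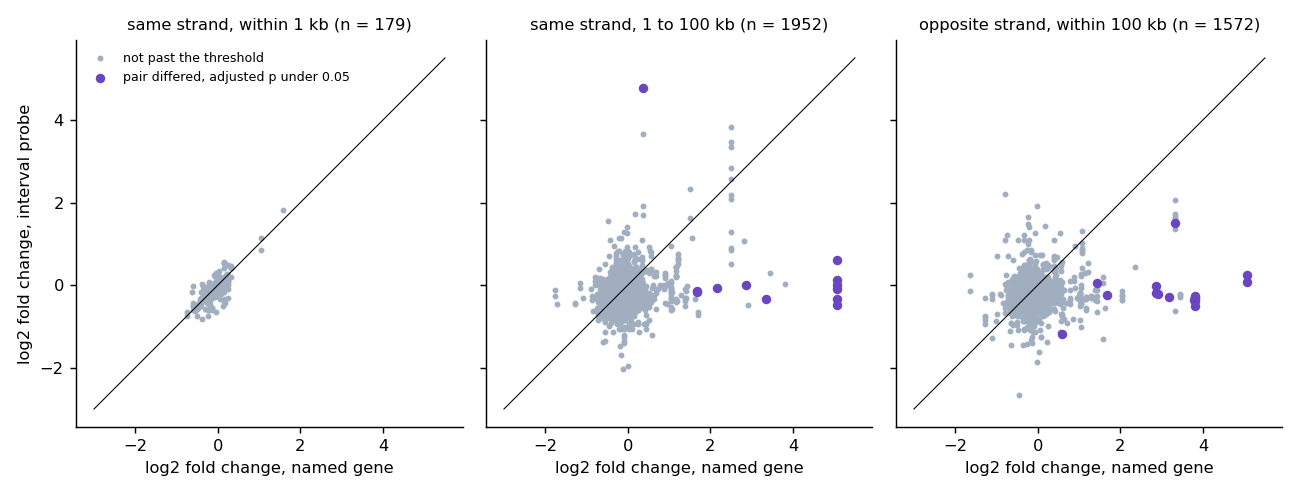
Fold change of an interval probe (y axis) against that of its nearest tested named gene (x axis), both log2 of Yaa over control, in 3 classes of strand and distance; each point is 1 pair, the line marks equal change and purple points are the 28 pairs that differed. Pairs within 1 kb on the same strand lie along the line, and most of the purple points lie at the right, where the gene rose and the interval probe stayed near 0.

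In 28 of 3703 pairs (0.756%) the change of the member differed from that of the gene past an adjusted p of 0.05. In 26 of them the gene was higher in Yaa past the test, and in 25 the member itself had not passed it. Around Bcl2a1d, a survival factor of leukocytes that rose by 5.06 ± 0.42 (adjusted p = 0.00118), 8 members of 4 intervals at 3.55 to 36.9 kb stood between -0.49 and 0.60. Beside Fcgr1, the high-affinity IgG receptor of macrophages, above background on 1 control array, with a fitted change of 3.81 ± 0.50 (adjusted p = 0.00869), 5 members of 1 interval at 3.98 to 4.27 kb stood between -0.50 and -0.25. Near Myo1g, a myosin of blood cells that rose by 2.86 ± 0.24, 3 members stood between -0.20 and 0.01, and near Il28ra, the receptor for interferon lambda that rose by 1.68 ± 0.24, 3 at 99.6 to 99.9 kb stood between -0.25 and -0.14. Single members were paired with Pdcd1lg2, Itln1, Hk2, Rac2, Lgals3 and Csf2ra and stood between -0.36 and 0.05. In 23 of the 28 pairs, member and gene were each above background on at least 1 array of both groups. These include the 5 pairs of Fcgr1, which had passed the filter through Yaa alone, so their difference rests on mostly undetected control signals. With the filter of well above background on all 6 arrays, 15 pairs differed. In the other 5, either the gene (Fut4, Hk2 and Pdcd1lg2, each on no control array) or the member (beside Plekho2 on no control array and beside Trafd1 on no Yaa array) was not, so the size of their difference is not measured. Without Yaa replicate 1 the number of differing pairs was 64.

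The members with the highest signals did not pass the test. The brightest, at chr19:5802130-5802189 in chr19:5801802-5802597, reverse strand, gave 9.35, 9.08 and 9.15 in controls and 9.22, 8.72 and 8.76 in Yaa (-0.29 ± 0.18, adjusted p = 0.428). It lies 6.24 kb from the array's probe for NEAT2, the nuclear noncoding RNA now called Malat1, on the same strand, which stood at -0.26. In chr14:78924115-78938125, forward strand, the controls gave 8.31, 8.68 and 8.48 and the Yaa arrays 8.18, 8.49 and 7.79 (-0.34 ± 0.21), and the nearest tested named gene was Akap11, an anchoring protein for protein kinase A, on the opposite strand at -0.41. A further 2 bright members, of chr17:39982023-39983277 (-0.28 ± 0.15) and chr17:39983902-39985688 (-0.55 ± 0.22), lie within 2 kb of the probe for Rn18s, the 18S ribosomal RNA, on its strand. The others, of chr6:83368261-83407280, chr6:116092274-116144199, chr11:22681800-22707775, chr12:73838608-73862621 and chr2:31714946-31716972, stood between -0.52 and -0.01. The groups overlapped in all of them but chr17:39982023-39983277.

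Intervals with signal on both strands were examined strand by strand. In chr12:73838608-73862621 the forward probe gave 7.40, 7.73 and 7.46 in controls and 7.43, 7.44 and 6.47 in Yaa, and the reverse probe 7.72, 7.98 and 7.76 and then 7.70, 7.79 and 7.0. Yaa replicate 3 was lowest on both strands. In chr7:108209996-108216032 the forward probe stood at 0.01 ± 0.17 and the reverse at 0.19 ± 0.15, and in chr17:39960567-39992817 they stood at -0.55 ± 0.20 and -0.28 ± 0.12. No probe of the 6 brightest intervals with both strands detected passed the test.

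For comparison, 27 of 55 listed long noncoding RNAs with names had a probe on the array, and 21 were tested. None passed the limma test, and 3 had an unadjusted p under 0.05. H19, an imprinted RNA of fetal tissue, stood at -2.46 ± 0.52 (adjusted p = 0.0597), and Meg3, an imprinted RNA of the Dlk1 region, at 0.63 ± 0.16 (adjusted p = 0.0988). Their median fold change was 0.06, beside -0.20 over the tested intervals. Among the other marker lists, T cell (9 tested), neutrophil (8) and proximal tubule (8) genes had no call, B and plasma cell genes 1 rise of 8, and distal nephron genes 1 fall of 7.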

How the data were processed

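Total RNA from isolated glomeruli was labelled with Cy3 and hybridised to 1-colour Agilent arrays, 1 per pool, per the labels' protocols. The deposited spot intensity values were made by the authors with Agilent Feature Extraction 10.7.3.1, per the file headers; version 9.5.3 is named in the submitters' processing notes. Processed intensity was background-subtracted within the array, dim spots carried surrogate values, and arrays had not been normalized against each other. The deposited flag columns, a score of 0 or 1 per spot, gave detection. Probe positions are on mm9, per the file headers. Groups follow title, description and genotype, which agree in every sample; the source name gives the other strain.

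Control spots (3671) and outlier spots were left out, the array's 75th percentile was subtracted from the log2 intensity, and a probe entered the test if all 3 arrays of either group flagged a share of 0.5 or more of its spots as well above background. All probes were fitted together with limma 3.58.1 in R 4.3.3 (two-sided, with 4 residual degrees of freedom and 3 from the prior, Benjamini-Hochberg adjustment over all probes tested). The strand and neighbour comparisons used limma on within-array differences. The steps were tested on simulated data. Called members were named by size (12 largest rises and 12 largest falls, the 10 brightest, 6 intervals with both strands, 3 on either side of the threshold). The members and lists were chosen with earlier results of these data known, and members named beyond that rule were chosen after their values were seen. Current gene symbols and classes came from RefSeq tables on GRCm38.p6, used for names only. Same-numbered arrays of the 2 strains deviated together (correlations of 0.140, 0.207 and 0.225 over tested probes), so the replicate number, which runs with the slide row, was taken to pair them, and a fit with it as a block is an alternative. The number of arrays limits the precision.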

Additional observations from a re-analysis of the deposited data

How the results depend on the processing

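Every one of the 27 rises and 31 falls kept its direction in each alternative in which it was tested, but many missed the threshold. These members were picked by the main fit and the alternatives reuse the same arrays, so the kept direction is not separate evidence. Normexp background correction gave 17 members higher and 13 lower, no filter on dim probes 16 and 3, a filter of well above background on all 6 arrays 16 and 18, and the brightest probe per interval and strand 9 and 20. Quantile normalization gave 29 and 30, the percentile over detected probes 30 and 24, and intensity-trended robust variances 32 and 22. Leaving out 1 array gave 14 to 40 higher and 11 to 88 lower, with 3 to 5 of the 31 falls still called when a control was left out. Calls over all tested probes moved too, from 945 to 743 with normexp correction, 421 without a filter and 683 with the 6-array filter. They numbered 841 with the brightest probe, 919 with quantile normalization, 904 with the percentile over detected probes and 1083 with trended variances. Without 1 array they numbered 489 to 1286, and with the replicate block 765. With the replicate block, 26 were higher and 22 lower, and 22 of the 27 rises and 16 of the 31 falls kept their call; blocked values stand beside named members that lost theirs, and no interval passed the strand test. The strand test gave 0 to 1 calls over the sets without 1 array and 0 in the other alternatives. Pairs that differed from the nearest named gene numbered 0 without a filter, 15 with the 6-array filter, 24 to 64 without 1 array, 7 within 10 kb and 80 within 1000 kb. Members well above background numbered 7922 on at least 1 array and 8743 by the positive-and-significant flag. The median fold change of members ran from -0.27 to -0.11 without 1 array. The cause was not tested. Signal over background limits most members: 10753 could not be tested, and for dim probes the size of a change depends on the background correction.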
